A study of Rattus norvegicus with 28 samples.

Results

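The NADH shuttle genes are the components of the malate-aspartate shuttle (Mdh1, Mdh2, Got1, Got2, Slc25a11 and Slc25a13) and of the glycerol phosphate shuttle (Gpd1 and Gpd2). They were picked by symbol from the deposited table of TPM, a level scaled for transcript length and library size, with 1 transcript kept per symbol. Of the 8 genes, 7 had a row, among 17455 symbols in all, and Slc25a13 was not analysed here. All 7 were above the minimum of a mean of 1 TPM, which 10275 symbols passed.

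RNA-seq was done on bulk cultures of INS-1, a line derived from a rat insulinoma whose cells release insulin in response to glucose. Cultures were either WT or edited to carry Med14 S983A, in which a serine is replaced by alanine. Med14 belongs to Mediator, which connects transcription factors with RNA polymerase II. The knock-in lines were grown from single sorted cells. The study's methods speak of 2 separately made lines over its experiments, but which of them gave each library is not given in the sources used here, so the substitution and the clone cannot be told apart. In each genotype there was an untreated group (CON) and groups exposed for 1, 8 or 16 h to exendin-4 (Ex-4, 10 nM), which acts on the receptor for GLP-1, or to forskolin (FSK, 10 µM), a direct activator of adenylyl cyclase that raises cAMP. Treated cells were moved to serum-free medium before exposure, and the sources used here do not say whether CON cells were moved too. Each of the 14 groups had 2 libraries, 28 in all. The study's methods call the replicates biological, but neither they nor the labels say what separated them, so p-values measure the spread between these libraries, which may in part be technical.

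NADH made in the cytosol by glycolysis cannot cross the inner mitochondrial membrane, and the shuttles carry its electrons across. In the malate-aspartate shuttle, cytosolic malate dehydrogenase reduces oxaloacetate to malate, malate enters the matrix in exchange for 2-oxoglutarate and is oxidized again there, and aspartate carries the carbon back after transamination. In the glycerol phosphate shuttle, a cytosolic dehydrogenase passes the electrons to glycerol 3-phosphate and a flavoenzyme of the inner membrane hands them to ubiquinone. Beta cells are known for little lactate formation and for high activity of both shuttles, through which glucose is coupled to respiration and insulin release.

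The libraries held 38542741 to 51811415 fragments on the kept transcripts and spike-ins, apart from 1 library of Med14 S983A (8 h of FSK, replicate 2) with 83715750. Spike-in RNA (ERCC) made up 0.736% to 1.15% of fragments. The r of log2 values between replicates was 0.998 to 0.999, and their counts differed by more than counting noise in all groups (chi-square over its degrees of freedom 2.47 to 9.83). Of the 10 beta cell markers looked for, 9 had a row, none of them below 13.2 TPM in any library, with Ins1 at 33716 to 67834 TPM. Of alpha cell markers, Gcg was at 6.09 to 1345 TPM and Irx2 was at 0 in all 28 libraries. The summed delta cell, PP cell, exocrine, fibroblast and immune markers stayed under 1 TPM in every library, at most 0.258, 0.171, 0.699, 0.069 and 0.008 TPM. Med14 itself was at 20.9 ± 0.883 TPM in untreated WT and 19.9 ± 0.504 TPM in untreated Med14 S983A cells (SD, n = 2), which does not check the genotype labels because 1 residue was changed. In bulk RNA, fewer cells of a type and less RNA per cell cannot be told apart, which touches every level below.

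Mdh2, the malate dehydrogenase of the mitochondrial matrix, had the highest mean of the 7 genes over the 28 libraries at 831 TPM. It was followed by Mdh1, the cytosolic malate dehydrogenase, at 563 TPM, and by Got2, the mitochondrial aspartate aminotransferase, at 372 TPM. Slc25a11, the carrier that exchanges malate for 2-oxoglutarate, had 187 TPM, and Got1, the cytosolic aspartate aminotransferase, had 146 TPM. The glycerol phosphate shuttle was lower, with 68.9 TPM for Gpd1, its cytosolic dehydrogenase, and 30.0 TPM for Gpd2, its inner membrane enzyme. The ranges over libraries also differed between the genes. The highest library was 6.72-fold above the lowest for Gpd1, 4.54-fold for Got1 and 2.51-fold for Gpd2, but 1.57-fold for Slc25a11, 1.69-fold for Mdh2, 1.70-fold for Got2 and 1.79-fold for Mdh1. At least 1099 fragments lay behind each value, the fewest being for Gpd2.

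Levels were summed over the exons of 1 RefSeq transcript per gene, with positions in rn6. These were NM_001316877 for Mdh1 (chromosome 14, 106378349 to 106393642, minus strand), NM_031151 for Mdh2 (chromosome 12, 23941451 to 23954403, minus strand), NM_012571 for Got1 (chromosome 1, 263246248 to 263269762, minus strand) and NM_013177 for Got2 (chromosome 19, 9587637 to 9613323, plus strand). Slc25a11 was NM_022398 (chromosome 10, 57265903 to 57268018, minus strand), Gpd1 was NM_022215 (chromosome 7, 141370540 to 141377930, plus strand) and Gpd2 was NM_012736 (chromosome 3, 43223927 to 43355858, plus strand). Mdh1 had 2 overlapping transcripts in the table, and the one with the higher mean was used.

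Mdh1, Mdh2 and Got1 all rose after 8 and 16 h of both agents in WT cells, as given further on, and Slc25a11 fell at 8 h of FSK, so their promoters are shown. RefSeq sequences of 250 bases before to 50 bases after the start were found for 6 of the 7 genes, in the build GRCr8, whose coordinates differ from rn6. Capitals mark the letters of the full cAMP response element TGACGTCA, the shorter TGACG, which lies within it, and the AP-1 element TGANTCA, searched on both strands.
Mdh1 (chr14:99847178-99847477, minus strand): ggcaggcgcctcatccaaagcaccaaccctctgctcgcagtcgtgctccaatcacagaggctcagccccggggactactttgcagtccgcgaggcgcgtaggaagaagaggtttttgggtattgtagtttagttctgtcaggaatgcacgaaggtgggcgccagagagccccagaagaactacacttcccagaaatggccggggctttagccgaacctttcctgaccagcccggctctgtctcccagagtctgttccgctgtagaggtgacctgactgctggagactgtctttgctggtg
Mdh2 (chr12:26543792-26544091, minus strand): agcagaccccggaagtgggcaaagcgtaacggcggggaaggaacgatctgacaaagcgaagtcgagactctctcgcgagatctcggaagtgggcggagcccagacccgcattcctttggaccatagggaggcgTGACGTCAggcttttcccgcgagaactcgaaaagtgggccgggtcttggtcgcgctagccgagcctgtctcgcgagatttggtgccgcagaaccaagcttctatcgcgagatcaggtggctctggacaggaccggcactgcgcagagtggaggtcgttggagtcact
Got1 (chr1:252329822-252330121, minus strand): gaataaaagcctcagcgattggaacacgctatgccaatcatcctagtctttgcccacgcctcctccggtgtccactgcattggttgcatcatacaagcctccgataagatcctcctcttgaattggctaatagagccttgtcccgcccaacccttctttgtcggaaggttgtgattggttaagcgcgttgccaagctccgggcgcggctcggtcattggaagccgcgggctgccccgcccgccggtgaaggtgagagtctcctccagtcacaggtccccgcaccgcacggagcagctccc
Slc25a11 (chr10:55859011-55859310, minus strand): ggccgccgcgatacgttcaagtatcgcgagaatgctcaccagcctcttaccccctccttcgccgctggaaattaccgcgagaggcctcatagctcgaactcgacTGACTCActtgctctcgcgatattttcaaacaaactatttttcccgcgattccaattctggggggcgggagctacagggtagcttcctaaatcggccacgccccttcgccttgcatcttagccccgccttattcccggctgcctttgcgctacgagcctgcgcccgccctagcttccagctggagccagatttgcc
Of these, Mdh2 holds TGACGTCA, which begins 117 bases before the start, and Slc25a11 holds TGANTCA, 146 bases before it. Of 33469 rat promoters of this length, 1.83% hold TGACGTCA, 21.2% hold TGACG and 7.33% hold TGANTCA. None of the 3 motifs was matched in the windows of Mdh1, Got1, Got2 or Gpd2. A match of letters is a description and does not show binding.

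**Figure D1:**
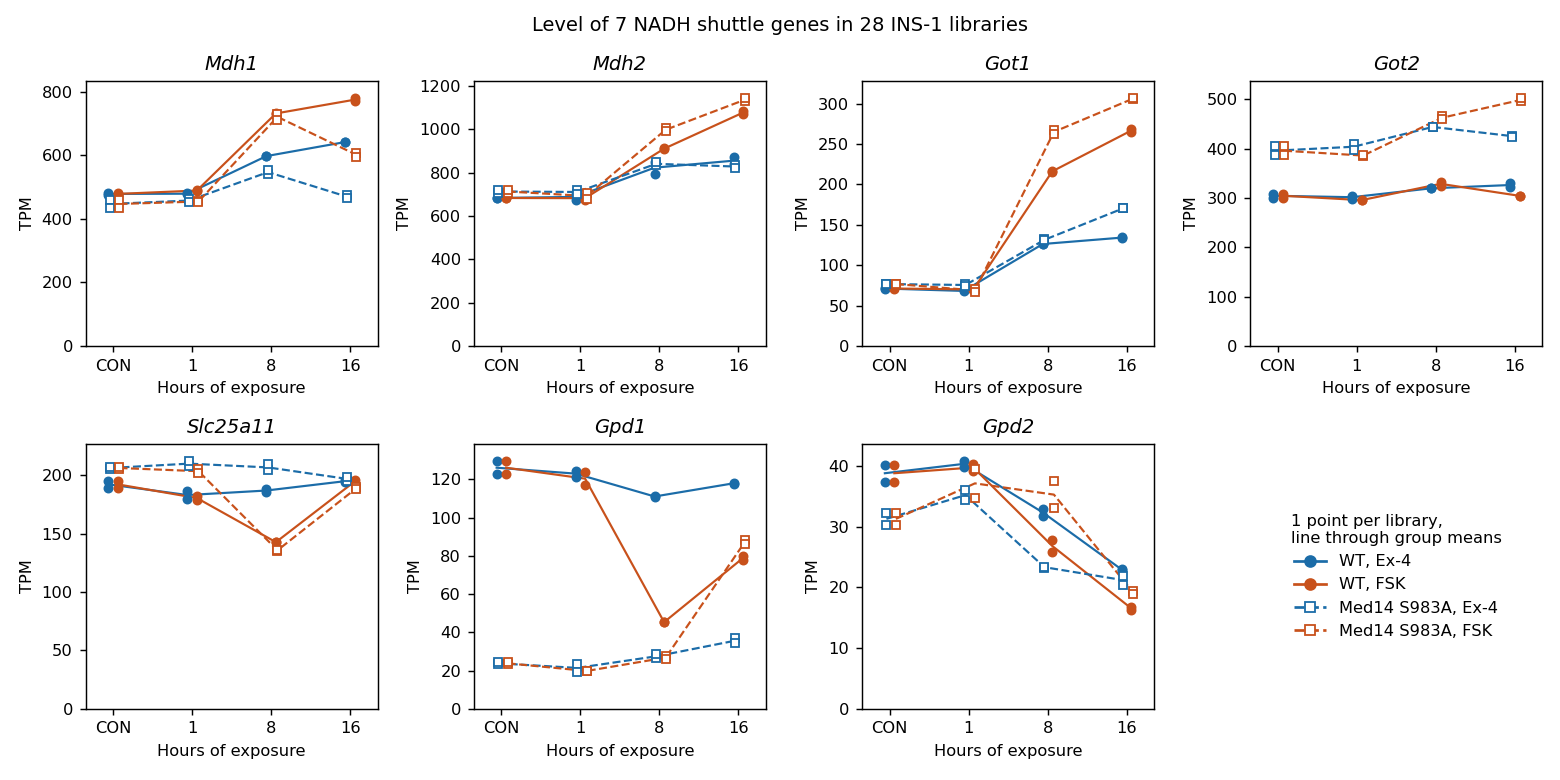
TPM of 7 shuttle genes (vertical axes, from 0) in CON and after 1, 8 and 16 h (horizontal axes, evenly spaced) of Ex-4 or FSK, with 1 point per library and lines through group means of 2 libraries. CON libraries are drawn once for each agent. Got1 was at 215 TPM or more in all 8 libraries at 8 and 16 h of FSK and at most at 77.0 TPM in CON, and Gpd1 was at 23.2 and 24.3 TPM in Med14 S983A CON against 123 and 130 TPM in WT CON.

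The first question was how the shuttle genes respond to Ex-4 and FSK in WT cells. Mdh1, which turns oxaloacetate into malate in the cytosol, had 476 and 481 TPM in the WT CON libraries and 641 and 642 TPM at 16 h of Ex-4. It had 730 and 732 TPM at 8 h of FSK and 771 and 779 TPM at 16 h, with no overlap with CON. Differences are given on the scale of log2(TPM + 1), tested by limma across 10275 genes, and a gene was called at 1.5-fold and an adjusted p under 0.05. Mdh1 rose by 0.32 at 8 h and 0.42 at 16 h of Ex-4 (SE 0.03, limma adjusted p 2.1e-09 and 9.5e-12), both under 1.5-fold, and by 0.61 and 0.69 at 8 and 16 h of FSK, both called. At 16 h of Ex-4 the median gene differed by -0.16 in TPM and by 0.15 after scaling on the spike-ins, and this scaling put the Mdh1 difference at 0.76, past 1.5-fold, as did median-centring at 0.61.

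Mdh2, which regenerates oxaloacetate and NADH in the matrix, had 681 and 684 TPM in WT CON and 839 and 870 TPM at 16 h of Ex-4. With FSK for 16 h the values were 1071 and 1081 TPM, and all treated libraries at 8 and 16 h lay above CON. Its log2 difference was 0.27 and 0.32 at 8 and 16 h of Ex-4 and 0.41 and 0.66 at 8 and 16 h of FSK (SE 0.03), and only the last was called. At 8 h of FSK it was past 1.5-fold after median-centring (0.80), and at 16 h of Ex-4 with spike-in scaling (0.66).

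Got1, which makes oxaloacetate from aspartate in the cytosol, had the largest rise of the 7 genes. In WT CON it had 70.2 and 72.2 TPM, at 8 h of Ex-4 126 and 127 TPM, and at 16 h 134 and 134 TPM. FSK brought it to 215 and 217 TPM at 8 h and to 265 and 268 TPM at 16 h. The log2 differences were 0.82 and 0.90 for Ex-4 and 1.59 and 1.89 for FSK (SE 0.03, limma adjusted p 1.1e-24 at 16 h of FSK), and all 4 were called. Got2, its mitochondrial counterpart, stayed at 295 to 333 TPM in all WT libraries. It had 301 and 309 TPM in WT CON and 304 and 305 TPM at 16 h of FSK, with a log2 difference of -0.00 (SE 0.03, limma adjusted p 0.979), which turned to 0.18 to 0.40 under the other scalings. The median gene was at -0.20 then. At 8 and 16 h of Ex-4 and 8 h of FSK, Got2 passed with differences of 0.07, 0.10 and 0.11, of which that at 16 h of Ex-4 also passed with spike-in scaling, at 0.43. After median-centring the difference at 8 h of FSK was 0.50.

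Slc25a11, which trades malate against 2-oxoglutarate across the inner membrane, showed a dip at 8 h of FSK. Its libraries had 189 and 195 TPM in WT CON, 143 and 143 TPM at 8 h of FSK and 194 and 196 TPM at 16 h. The log2 difference at 8 h was -0.43 (SE 0.03, limma adjusted p 1.5e-12), under 1.5-fold, against a median of all genes of -0.34 at this time. After centring each library on its median it was -0.04 and no longer passed, while spike-in scaling gave -0.41. Slc25a11 stayed between 180 and 196 TPM at all times of Ex-4, and none of the 3 Ex-4 differences passed in TPM. At 16 h it was higher than CON after median-centring, by 0.21 for Ex-4 and 0.26 for FSK, where TPM gave 0.02 for both.

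Neither enzyme of the glycerol phosphate shuttle rose in TPM in WT cells. Gpd1, which uses cytosolic NADH to make glycerol 3-phosphate, had 123 and 130 TPM in WT CON and 118 and 118 TPM at 16 h of Ex-4. Under FSK it was at 45.3 and 45.4 TPM at 8 h and at 77.7 and 80.2 TPM at 16 h, below CON in all 4 libraries. Its log2 difference was -1.46 at 8 h and -0.67 at 16 h of FSK (SE 0.06, limma adjusted p 2.1e-17 and 1.7e-10), and both were called, the latter not after median-centring (-0.43) or spike-in scaling (-0.27). At 16 h of Ex-4 its difference of -0.10 did not pass and became 0.24 with spike-in scaling, which passed (limma adjusted p 0.048), and its -0.18 at 8 h passed in TPM but not after median-centring (-0.06).

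Gpd2, which passes the electrons of glycerol 3-phosphate into the respiratory chain, had 37.4 and 40.2 TPM in WT CON. It had 22.8 and 22.99 TPM at 16 h of Ex-4 and 16.2 and 16.8 TPM at 16 h of FSK, the lowest 2 of the 28 libraries. Its log2 difference was -0.26 at 8 h and -0.73 at 16 h of Ex-4, and -0.52 and -1.18 at 8 and 16 h of FSK (SE 0.06), with calls at 16 h only. The Ex-4 call at 16 h was lost after median-centring (-0.55) and spike-in scaling (-0.41), where the fall still passed the test. The fall at 8 h of Ex-4 no longer passed with spike-in scaling (-0.11), and that at 8 h of FSK, where the median gene was at -0.34, was -0.13 after median-centring. At 1 h of FSK the Gpd2 difference of 0.04 did not pass in TPM and passed at 0.17 after median-centring.

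In WT, 1 of the 7 genes was called at 8 h of Ex-4 (Got1) and 2 at 16 h (Got1 higher, Gpd2 lower), against 9.6% and 11.8% of all genes. With FSK, 3 were called at 8 h (Mdh1 and Got1 higher, Gpd1 lower) and 5 at 16 h (Mdh1, Mdh2 and Got1 higher, Gpd1 and Gpd2 lower), against 43.6% and 34.5%. Rises alone took in 8.77% of all genes at 8 h and 10.3% at 16 h of FSK, and 2 and 3 of the 7 genes. Limma called 0 of 7 at 1 h of either agent, against 2.87% of all genes for Ex-4 and 7.47% for FSK. Of the 1 h differences in TPM, only that of Slc25a11 with FSK passed (-0.09), and not after median-centring (0.04) or spike-in scaling (-0.02). At 1 h, 1 gene had an unadjusted p under 0.05 for each agent, and edgeR and DESeq2 on recovered fragments also called 0. The median of the 7 log2 differences was 0.10 at 16 h of Ex-4 and 0.02 at 16 h of FSK, against -0.16 and -0.20 for all genes.

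**Figure D2:**
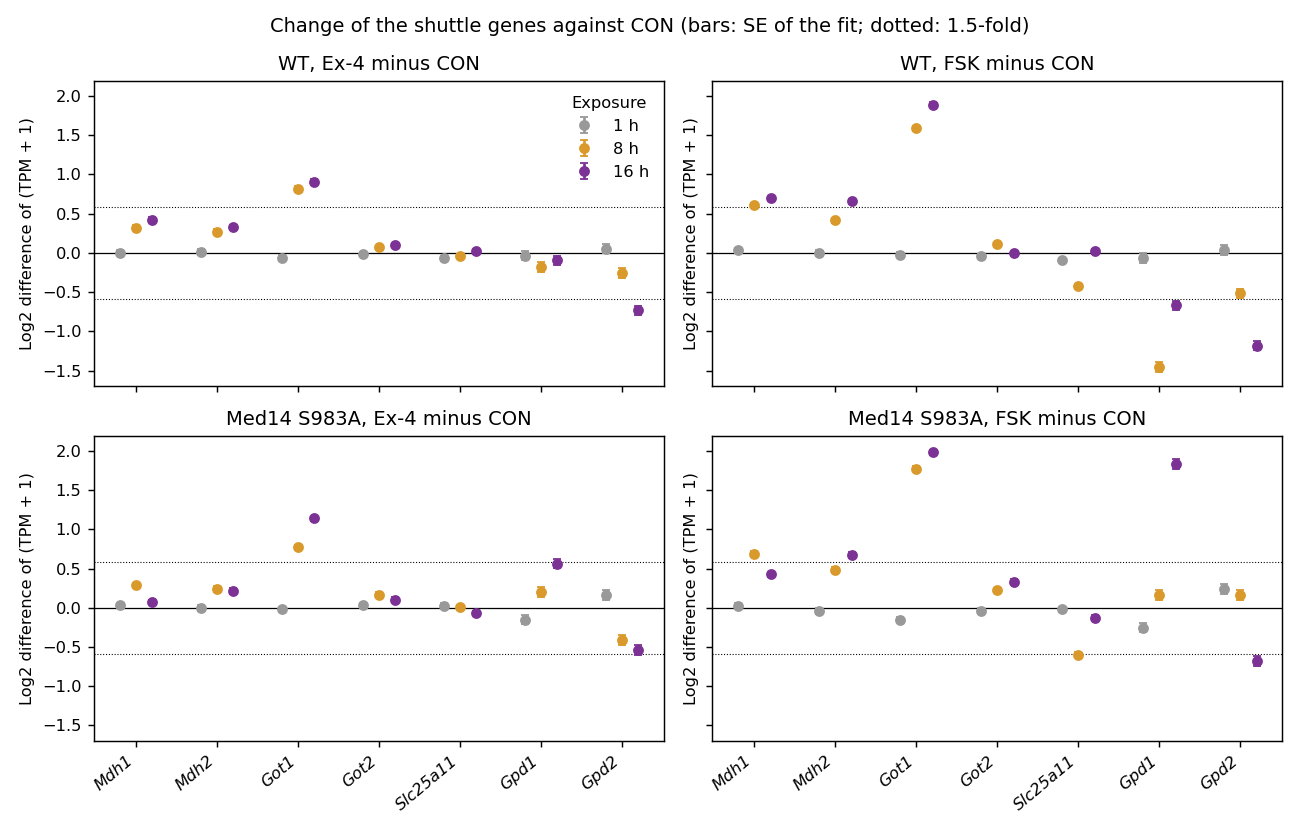
Log2 difference of (TPM + 1) between each treated group and CON of the same genotype (vertical axis) for the 7 genes, with the SE of the limma fit as bars, colours for 1, 8 and 16 h and dotted lines at 1.5-fold. Got1 is above the upper line at 8 and 16 h in all 4 panels, and Gpd1 at 16 h of FSK is at -0.67 in WT and at 1.83 in Med14 S983A.

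The next question was how the same genes respond in cells with Med14 S983A. Got1 rose there as well, from 76.5 and 77.0 TPM in CON to 170 and 171 TPM at 16 h of Ex-4 and to 306 and 306 TPM at 16 h of FSK. These were log2 differences of 1.14 and 1.98 (SE 0.03), and both were called, as were 0.77 and 1.77 at 8 h. Mdh2 had 704 and 721 TPM in CON, 820 and 835 TPM at 16 h of Ex-4 and 1129 and 1142 TPM at 16 h of FSK, with log2 differences of 0.22 and 0.67, the latter called. The Mdh2 rise at 16 h of Ex-4 did not pass with spike-in scaling (0.11). At 8 h Mdh2 rose by 0.24 with Ex-4 and 0.48 with FSK, and the latter became a call after median-centring (0.82).

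Mdh1 in Med14 S983A had more TPM at 8 h than at 16 h of both agents, a difference between times that was not tested. It had 435 and 458 TPM in CON, 541 and 553 TPM at 8 h of Ex-4 and 464 and 475 TPM at 16 h. With FSK it had 711 and 729 TPM at 8 h and 594 and 608 TPM at 16 h. The log2 difference was 0.29 at 8 h of Ex-4 and 0.07 at 16 h (SE 0.03, limma adjusted p 1.4e-08 and 0.039), and the second turned to -0.04 with spike-in scaling. Under FSK it was 0.69 at 8 h, a call, and 0.43 at 16 h, under 1.5-fold in TPM and past it with spike-in scaling (0.67). With spike-in scaling the value at 8 h of FSK was 0.60, so the order of the times under FSK turned.

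Got2 had 387 and 405 TPM in Med14 S983A CON and 496 and 502 TPM at 16 h of FSK. Its log2 differences were 0.17 and 0.10 at 8 and 16 h of Ex-4, the latter -0.01 with spike-in scaling, and 0.22 and 0.33 at 8 and 16 h of FSK, all under 1.5-fold. With spike-in scaling the 3 smaller ones did not pass. Slc25a11 dipped at 8 h of FSK here too, from 205 and 207 TPM in CON to 135 and 136 TPM, the lowest 2 of all 28 libraries, with a log2 difference of -0.60 (SE 0.03), which was called. The median of all genes was -0.28 at that time, and after median-centring the Slc25a11 difference was -0.26 and no longer a call. At 16 h of FSK, Slc25a11 had 188 and 190 TPM, with a log2 difference of -0.13 that turned to 0.02 after median-centring and to 0.12 with spike-in scaling.

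Gpd1, lower than CON at 8 and 16 h of FSK in WT, was higher than CON at these times in Med14 S983A. In Med14 S983A it had 23.2 and 24.3 TPM in CON, 26.002 and 27.5 TPM at 8 h of FSK and 86.0 and 88.3 TPM at 16 h, so the libraries at 16 h lay above those of WT at the same time. The log2 difference at 16 h of FSK was 1.83 (SE 0.06, limma adjusted p 2.8e-19), and that at 8 h was 0.16, which did not pass with spike-in scaling (0.075) and was 0.50 after median-centring. At 1 h of FSK both libraries lay below CON, with a log2 difference of -0.25 (SE 0.06, limma adjusted p 0.00088). This difference did not pass after median-centring (-0.10) and passed with spike-in scaling (-0.45). With Ex-4, Gpd1 reached 34.5 and 36.8 TPM at 16 h, a log2 difference of 0.56 (SE 0.06) that passed but lay just under 1.5-fold. Gpd2 had 30.3 and 32.3 TPM in CON, 33.1 and 37.4 TPM at 8 h of FSK and 18.9 and 19.5 TPM at 16 h. The lower of the libraries at 8 h of FSK was the deepest of the 28. The Gpd2 log2 difference was 0.17 at 8 h and -0.68 at 16 h of FSK, and -0.41 and -0.54 at 8 and 16 h of Ex-4 (SE 0.06), with a call at 16 h of FSK only. That call was lost after median-centring (-0.53) and with spike-in scaling (-0.44), and the Gpd2 rise at 8 h of FSK did not pass with spike-in scaling (0.08) and was 0.50 after median-centring. With spike-in scaling the Gpd2 fall at 16 h of Ex-4 became a call (-0.65).

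In Med14 S983A, 1 of the 7 genes was called at 8 h and 1 at 16 h of Ex-4 (Got1 in both), against 6.3% and 11.9% of all genes. With FSK, 3 were called at 8 h (Mdh1 and Got1 higher, Slc25a11 lower) and 4 at 16 h (Mdh2, Got1 and Gpd1 higher, Gpd2 lower), against 46.1% and 33.3%. Without CON replicate 2, the Ex-4 calls of the 3 times together went from 2 to 4, with Gpd1 at 0.60 and Gpd2 at -0.59 at 16 h as the additional calls. At 1 h limma called 0 of 7 for either agent, against 3.04% of all genes for Ex-4 and 10.4% for FSK. Those that passed in TPM at 1 h were Gpd2 with Ex-4 (0.17) and Got1 (-0.15), Gpd1 (-0.25) and Gpd2 (0.24) with FSK. With spike-in scaling neither Gpd2 difference passed, and after median-centring neither that of Got1 nor that of Gpd1. Those of Got1 and Gpd1 passed with spike-in scaling, at -0.36 and -0.45. In TPM at 1 h, 2 genes for Ex-4 and 3 for FSK had an unadjusted p under 0.05, and edgeR and DESeq2 called 0.

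Genotype was compared in untreated cells. Gpd1 was the only one of the 7 genes called, with 123 and 130 TPM in WT CON and 23.2 and 24.3 TPM in Med14 S983A CON. Its log2 difference was -2.36 (SE 0.06, limma adjusted p 2.5e-21), and it lay between -2.15 and -2.36 under all scalings and tools. The share of all genes called in this comparison was 19.4%, 11.1% as lower, and 96 of 10275 genes were as low or lower, Gpd1 included. The alpha cell marker Gcg and the beta cell markers differed with it, and their part was not tested. Gcg was at 165 and 169 TPM in WT CON and 6.09 and 6.56 TPM in Med14 S983A CON, and at 165 to 1345 TPM over all WT and 6.09 to 113 TPM over all Med14 S983A libraries. The highest Gcg levels, 1225 and 1345 TPM, were those of WT at 8 h of FSK, where Gpd1 was lowest in WT. At 8 and 16 h of Ex-4 in WT, Gcg had means of 838 and 956 TPM and Gpd1 of 111 and 118 TPM. At 16 h of FSK in WT the means were 785 TPM for Gcg and 79.0 TPM for Gpd1. The summed beta markers were at 51225 and 52135 TPM in WT CON and at 80755 and 89647 TPM in Med14 S983A CON. The insulin genes made up this rise. Ins2 had a mean of 2938 TPM in WT CON and 35068 TPM in Med14 S983A CON, and Ins1 had 34109 and 40615 TPM. The remaining beta markers together were lower in Med14 S983A CON than in WT CON.

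The other 6 genes differed by less than 1.5-fold between untreated genotypes. Got2 was higher in Med14 S983A by 0.38 (SE 0.03, limma adjusted p 3.5e-11), with 301 and 309 TPM in WT and 387 and 405 TPM in Med14 S983A. With spike-in scaling it was 0.58. Gpd2 had a difference of -0.30, which no longer passed with spike-in scaling (-0.10). Got1 and Slc25a11 were higher by 0.11 and 0.10 (0.31 for both with spike-in scaling), and Mdh1 was at -0.10, which was -0.01 after median-centring and turned to 0.11 with spike-in scaling. Mdh2 did not pass at 0.06 (limma adjusted p 0.116) and passed at 0.15 after median-centring. Of the genes around Gpd1 in rn6, 25 tested ones on each side, 8 of 50 were called between genotypes, against 19.4% of all genes. Their median difference was -0.09. Around Got2 the median was 0.16, with 11 of 34 genes called, against the same share of all genes. Fewer than 25 tested genes lay on 1 side of Got2 on its chromosome.

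Whether the responses differ between the genotypes was tested as the response in Med14 S983A minus the response in WT. Here too the substitution and the clone cannot be told apart. Limma called Gpd1 at 8 h and 16 h of FSK, with differences of 1.62 and 2.50 (SE 0.08, limma adjusted p 7.6e-14 and 1.3e-17), and Gpd2 at 8 h of FSK, with 0.68 (SE 0.09, limma adjusted p 4.4e-07). These made 2 of 7 genes at 8 h and 1 at 16 h of FSK, against 13.9% and 17% of all genes. Gpd1 kept its difference under every scaling, 1.51 to 1.62 at 8 h and 2.35 to 2.50 at 16 h. Gpd2 at 8 h of FSK was at 0.58 with spike-in scaling of TPM, just under 1.5-fold. At 16 h of FSK the Gpd2 difference was 0.51, which passed in TPM but not with spike-in scaling (0.36).

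For Ex-4, Gpd1 at 16 h was the only call, 1 of 7 against 7.24% of all genes, with a difference of 0.66 (SE 0.08, limma adjusted p 9.8e-07). The call was lost under other scalings. After median-centring the difference was 0.53, which still passed but lay under 1.5-fold. With spike-in scaling it was 0.22 and did not pass (limma adjusted p 0.186). Mdh1 went the other way, with -0.35 at 16 h of Ex-4 (SE 0.04, limma adjusted p 4.1e-07), under 1.5-fold in TPM, -0.48 after median-centring and -0.79 with spike-in scaling, where it became the only call. Mdh2 and Slc25a11, at -0.11 and -0.09, did not pass in TPM. Both passed after median-centring (-0.24 and -0.22) and with spike-in scaling (-0.55 and -0.53), and also with edgeR and DESeq2. For the median gene the interaction was 0.09 in TPM and -0.33 when scaled on the spike-ins. At 16 h of FSK Mdh1 was at -0.27 (SE 0.04, limma adjusted p 8.6e-06), -0.36 and -0.42 on the 3 scales, and at 8 h of FSK its 0.08 did not pass. Limma called 0 of 7 at 8 h of Ex-4, where Gpd1 passed with 0.38 (0.25 with spike-in scaling, which did not pass), and at 1 h of either agent, against 2.77%, 0.672% and 1.64% of all genes. In these 3 tests 2, 1 and 3 genes had an unadjusted p under 0.05, and edgeR and DESeq2 called 0.

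**Figure D3:**
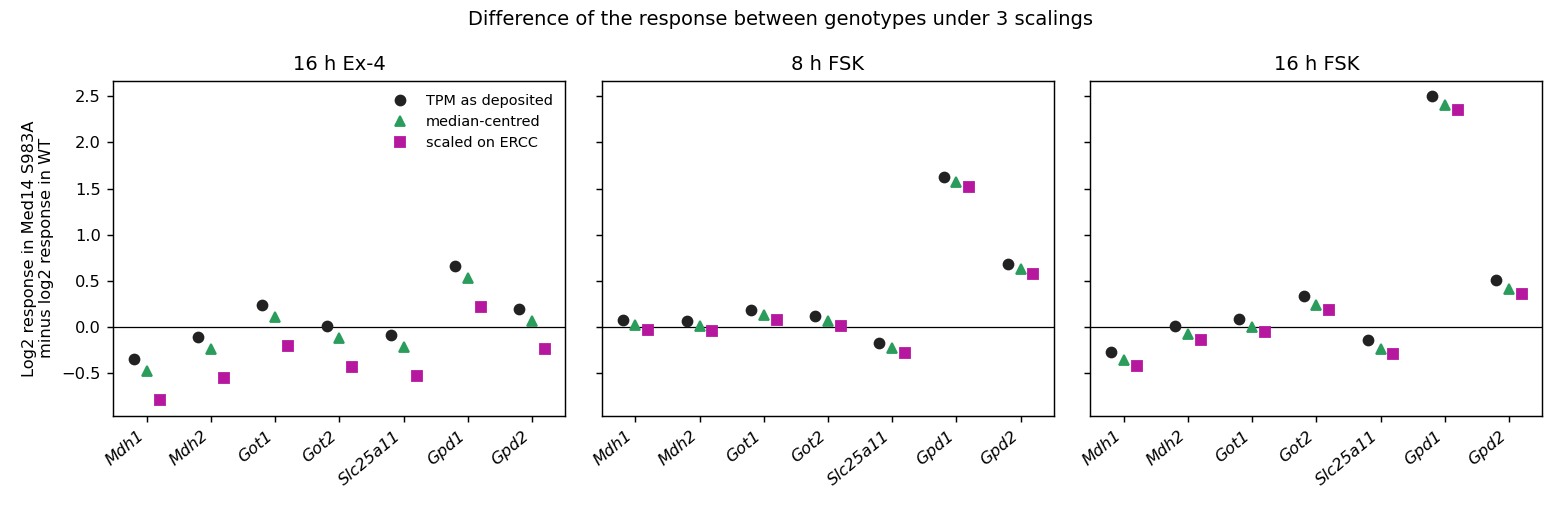
Response of each gene in Med14 S983A minus its response in WT, as log2 (vertical axis), at 16 h of Ex-4, 8 h of FSK and 16 h of FSK, under TPM as deposited, median-centring and spike-in scaling. Gpd1 stands apart at 8 and 16 h of FSK on all 3 scales, while at 16 h of Ex-4 spike-in scaling puts Got1 at -0.20 and Got2 at -0.44 in place of 0.24 and 0.01.

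Ex-4 and FSK were also compared with each other at the same hours, at the 1 dose used of each. The log2 difference, Ex-4 minus FSK, was -0.77 at 8 h and -0.99 at 16 h for Got1 in WT (SE 0.03) and 1.27 at 8 h for Gpd1 (SE 0.06), all called. These were 2 of 7 genes at 8 h and 1 at 16 h, against 28.1% and 18.7% of all genes. In Med14 S983A it was -1.01 and -0.84 at 8 and 16 h for Got1, 0.60 at 8 h for Slc25a11 and -1.27 at 16 h for Gpd1. That was 2 of 7 genes at each time, against 36.5% and 16.3%. The Slc25a11 call was lost after median-centring (0.30). At 1 h limma called 0 of 7 in either genotype, against 1.79% and 3.03% of all genes, with 0 and 2 unadjusted p under 0.05 and 0 calls by edgeR and DESeq2.

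Ratios of the cytosolic to the mitochondrial enzyme of a step do not depend on the scaling of a library. The ratio of Got1 to Got2 TPM was 0.234 ± 0.00023 in WT CON, 0.411 ± 0.005 at 16 h of Ex-4 and 0.875 ± 0.009 at 16 h of FSK (SD, n = 2). In Med14 S983A it was 0.194 ± 0.005, 0.400 ± 0.002 and 0.613 ± 0.004. The libraries of these treated groups lay above CON in both genotypes. The ratio of Mdh1 to Mdh2 was 0.701 ± 0.003 in WT CON and 0.751 ± 0.021 at 16 h of Ex-4, but 0.627 ± 0.033 and 0.567 ± 0.002 in Med14 S983A, where it was 0.530 ± 0.013 at 16 h of FSK, the lowest of the 14 groups. At 8 h of FSK this ratio lay above CON in both genotypes. It was 0.804 ± 0.0007 in WT, the highest of the 14 groups, and 0.723 ± 0.005 in Med14 S983A. The ratio of Gpd1 to Gpd2 in untreated cells was 3.25 ± 0.039 for WT and 0.762 ± 0.060 for Med14 S983A. It was highest in WT at 16 h of Ex-4, at 5.15 ± 0.013, where the libraries of both enzymes lay below CON. At 8 h of FSK it was 1.69 ± 0.080 in WT and 0.761 ± 0.035 in Med14 S983A. At 16 h of FSK it was 4.78 ± 0.227 in WT and 4.54 ± 0.002 in Med14 S983A (4.54 and 4.54 against 4.62 and 4.94 in WT).

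**Figure D4:**
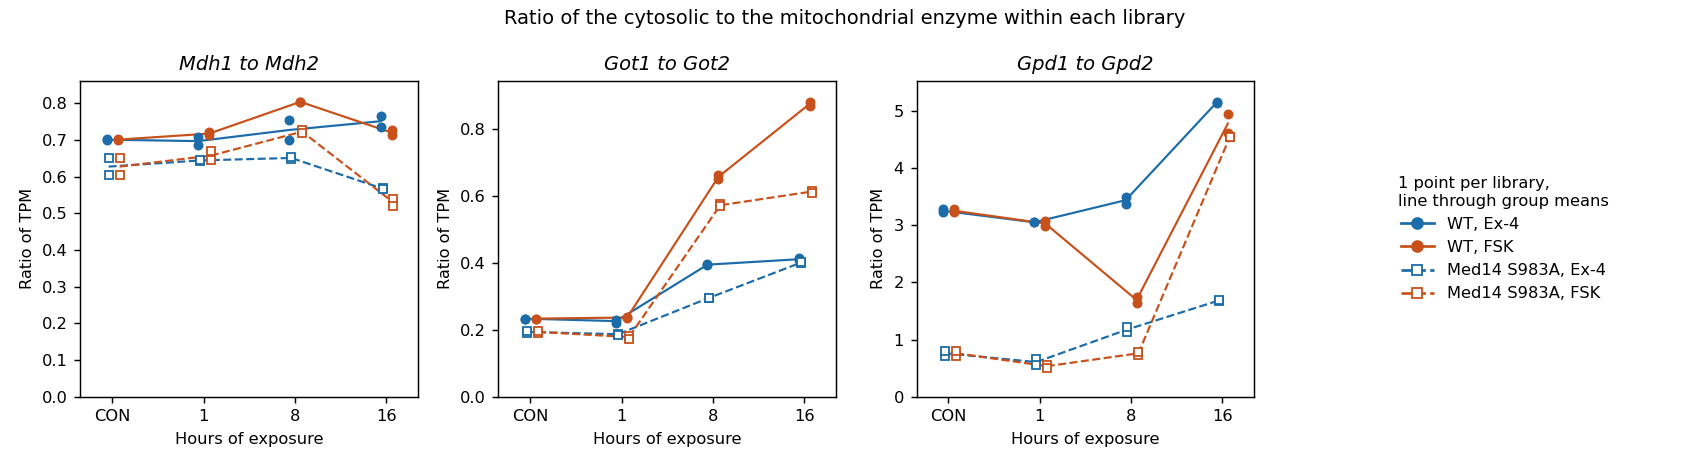
Ratio of TPM of the cytosolic to the mitochondrial enzyme (vertical axes, from 0) in each library by hours of exposure, with lines through the means of 2 libraries. Got1 to Got2 was highest in WT at 16 h of FSK (0.869 and 0.882), and Gpd1 to Gpd2 in untreated cells was above 3 in WT and below 1 in Med14 S983A.

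In the order of the 14 groups, Mdh1 was highest in WT at 16 h of FSK, Mdh2, Got1 and Got2 in Med14 S983A at 16 h of FSK, Slc25a11 in Med14 S983A at 1 h of Ex-4, Gpd1 in WT CON and Gpd2 in WT at 1 h of Ex-4. Neighbouring groups in the order overlapped in 4 of 13 steps for Mdh1, 5 for Got1 and Got2, 6 for Gpd1 and Gpd2 and 8 for Mdh2 and Slc25a11, and such neighbours do not differ beyond their spread. For Gpd1 the top 4 groups were WT CON, WT at 1 h of either agent and WT at 16 h of Ex-4, and each overlapped the next. All 7 Med14 S983A groups had more Got2 than any WT group, with the nearest libraries at 385 and 333 TPM.

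Across the 14 group means of log2(TPM + 1), Mdh2 and Got1 varied together with an r of 0.98, Mdh1 had an r of 0.83 with each of them, and Gpd2 had an r of -0.78 with Mdh2 and -0.75 with Got1. Gpd1 had an r of -0.65 with Got2 and 0.00015 with Got1. These are descriptions over 14 groups that share treatments and clones. Among 7677 tested genes of at least 10 TPM, those most alike included Ap2a2 and Xpnpep1 for Mdh1 (r 0.98 and 0.96), Fads3 and Dolk for Mdh2 (0.99 and 0.98), Idh3a for Got1 (0.98) and Ube2v2 and Akr1a1 for Got2 (0.98 and 0.98). They also included Rmdn1 and Kctd17 for Slc25a11 (0.98 and 0.97), Prss23 and Nme1 for Gpd1 (0.96 and 0.96) and Cnot6 and Pcna for Gpd2 (0.94 and 0.94).

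Of the close relatives of the shuttle genes, Gpd1l, which like Gpd1 acts on glycerol 3-phosphate, was tested, while Mdh1b and Got1l1 had means of 0.419 and 0.003 TPM, and Slc25a12 was not analysed here. Gpd1l had 15.1 ± 1.45 TPM in WT CON and 9.99 ± 0.518 TPM in Med14 S983A CON (SD, n = 2), a log2 difference of -0.55 (SE 0.09, limma adjusted p 1.4e-05), under 1.5-fold on the log2(TPM + 1) scale. At 16 h it fell in WT by 0.77 with Ex-4 and by 0.91 with FSK, both called, and in Med14 S983A its -0.11 and 0.02 did not pass. The difference between these responses was 0.66 for Ex-4 and 0.92 for FSK (SE 0.13, limma adjusted p 0.00027 and 1.8e-06), and both were called. All Gpd1l differences are in TPM, and other scalings are not reported here for this gene. The value for Ex-4 lies close to that of Gpd1, whose call was lost under other scalings.

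Of 12 genes of pyruvate cycling and mitochondrial carriers, 10 were tested. In WT at 16 h of Ex-4, 1 of the 10 was called, against 11.8% of all genes. This was Idh1, a cytosolic NADPH-forming enzyme, with a rise of 0.80. The median of the 10 was 0.12 against -0.16 for all genes. At 8 h of FSK, 4 of the 10 were called lower in WT and 3 in Med14 S983A, with medians of -0.47 and -0.45, where the medians of all genes were -0.34 and -0.28 and 43.6% and 46.1% of all genes were called. Between untreated genotypes, where 19.4% of all genes were called and 11.1% were called lower, 2 were called, both lower in Med14 S983A. These were Me3, a mitochondrial malic enzyme, at -1.26 on the log2 scale, and Slc25a10, a dicarboxylate carrier that also moves malate, at -0.96, from 288 ± 8.90 to 148 ± 4.93 TPM (SD, n = 2).

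Of 6 genes of lactate formation and export, 3 were tested, since Ldha, Ldhc and Slc16a3 had means under 1 TPM, with Ldha listed at 0 to 0.020 TPM. All 3 were called higher at 16 h of FSK in both genotypes, with medians of 1.39 in WT and 1.78 in Med14 S983A. Of all genes, 34.5% were called in WT and 33.3% in Med14 S983A at that time, and 10.3% were called higher in WT. The share called higher in Med14 S983A is not given here. Ldhb, a lactate dehydrogenase subunit, had 78.9 ± 1.82 TPM in WT CON and 21.1 ± 0.310 TPM in Med14 S983A CON (SD, n = 2). Its log2 difference of -1.85 (SE 0.04) was the only call of the 3 between genotypes, where 19.4% of all genes were called. Ldhb had more TPM at 1 h than at 16 h of FSK, a difference between times that was not tested. Its means were 289 and 208 TPM in WT and 105 and 75.2 TPM in Med14 S983A. At 1 h of Ex-4 in WT its mean was 173 TPM. Slc16a7, a monocarboxylate transporter, rose by 0.80 at 16 h of Ex-4 in WT, from 0.620 and 0.677 TPM to 1.81 and 1.92 TPM. Slc16a1, another such transporter, was picked after its values were seen. It had 18.7 ± 2.56 TPM in WT and 96.2 ± 2.49 TPM in Med14 S983A at 16 h of FSK (SD, n = 2), and its response differed by 1.95 (SE 0.11, limma adjusted p 1.3e-13).

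All 9 other users of shuttle metabolites were tested. In WT at 16 h of Ex-4, 1 was called, against 11.8% of all genes. This was Gpam, which acylates glycerol 3-phosphate and fell by 0.92, from 16.0 ± 1.41 to 7.94 ± 0.377 TPM (SD, n = 2). The median of the 9 was -0.04 against -0.16 for all genes. At 8 h of FSK in WT, 2 were called higher and 4 lower, where 43.6% of all genes were called and 8.77% were called higher. Between untreated genotypes, 1 of the 9 was called, against 19.4% of all genes. This was Ass1, which joins aspartate to citrulline, with 57.9 ± 2.26 TPM in WT and 120 ± 4.90 TPM in Med14 S983A. Its log2 difference was 1.04 (SE 0.05).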

How the data were processed

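Per the submitters' notes and the study's methods, the authors used STAR 2.5.3a for alignment to rn6 plus ERCC and HOMER 4.11.1 to sum RefSeq exons; the deposited TPM entered the tests unchanged. The deposited count table holds the authors' counts of the 92 ERCC sequences, spiked in per mass of total RNA. Spike-in scaling therefore measures RNA per mass, not per cell. The library kit was directional, but the strand setting of the TPM is not given in the sources used here, so overlapping antisense reads cannot be told apart. The authors used DESeq2 1.24.0 with ERCC size factors on gene counts, which were not used here.

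The 28 libraries were grouped by title. For each symbol the transcript with the highest mean TPM was kept. Log2(TPM + 1) was fitted with limma 3.58.1 in R 4.3.3 (a mean per group, eBayes with trend, 14 residual degrees of freedom, two-sided, Benjamini-Hochberg within each of 25 contrasts over the 10275 genes whose mean reached 1 TPM). Called means over 1.5-fold with adjusted p under 0.05, and a gene passed at an adjusted p under 0.05 alone. The fit was tested on simulated data. Fragments were recovered from TPM, length and ERCC counts; 100% of 105446 values under 1000 that the rounding of the table resolves came out as whole reads (tolerance 0.05, 20.13% by chance). EdgeR 4.0.16 and DESeq2 1.42.0 were run on them as alternatives. The others were a pseudocount of 0.1, no filter, a mean of at least 5 TPM, centring on the library median, ERCC scaling, only the libraries of a contrast, the replicate number as a block, each library left out, no fold minimum and the sum of transcripts. Named beside the members were at most 3 called genes per list at 16 h of Ex-4 in WT and between genotypes at CON, and the 2 most alike genes; some genes that these rules or the marker lists pick are not reported here. The members and lists were chosen with earlier results of these data known, and Mdh1 is among the genes the study picked on these libraries.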

Additional observations from a re-analysis of the deposited data

Results flagged for a closer look

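The results below drew attention because the response to an agent differed between WT and Med14 S983A in the interaction test (adjusted p under 0.05 by limma over 10275 genes), given as log2 in Med14 S983A minus WT. For Gpd1 the difference was 0.38 at 8 h and 0.66 at 16 h of Ex-4, and 1.62 at 8 h and 2.50 at 16 h of FSK. Under FSK both WT libraries at 8 and at 16 h lay below CON and both Med14 S983A libraries above it. For Gpd2 it was 0.68 at 8 h and 0.51 at 16 h of FSK. For Mdh1 it was -0.35 at 16 h of Ex-4 and -0.27 at 16 h of FSK. For Got1 it was 0.24 at 16 h of Ex-4, which turned to -0.20 with spike-in scaling, and 0.19 at 8 h of FSK. For Got2 it was 0.12 at 8 h and 0.33 at 16 h of FSK, and for Slc25a11 -0.17 and -0.14 at the same times. Of these 14, 4 were past 1.5-fold, 3 of Gpd1 and 1 of Gpd2. With spike-in scaling 5 of the 14 still passed, namely Gpd1 at both times of FSK, Gpd2 at 8 h of FSK and Mdh1 at 16 h of both agents, and 9 did not.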

How the results depend on the processing

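Counts are of called pairs of gene and contrast. The share of all genes that passed without the fold minimum is not given here, so counts without it cannot be set against that share. Without the fold minimum they were 11 in place of 3 for Ex-4 in WT, 13 in place of 8 for FSK in WT, 13 in place of 2 for Ex-4 in Med14 S983A, 17 in place of 7 for FSK in Med14 S983A, 6 in place of 1 for genotype, 4 in place of 1 for the Ex-4 interaction, 10 in place of 3 for the FSK interaction, and 12 and 11 in place of 3 and 4 for Ex-4 against FSK in WT and in Med14 S983A, as the construction of this count implies. The Ex-4 interaction count of 1 (Gpd1 at 16 h) was 0 after median-centring, with edgeR and with DESeq2, where Gpd1 lay at 0.53, 0.57 and 0.56, and with spike-in scaling the 1 call was Mdh1. Leaving out each library in turn gave 2 to 4 for Ex-4 in Med14 S983A (4 without CON replicate 2), 3 to 4 and 4 to 5 for Ex-4 against FSK in WT and in Med14 S983A, and no other count moved. The remaining counts were within 1.5 times.

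The 7 genes gave 98 log2 differences for the treatments and interactions at 8 and 16 h, the genotypes at CON and the called pairs of Ex-4 against FSK, the values at 1 h not being counted. Of these 98, 76 passed and 32 were called. The pairs of Ex-4 against FSK count in both totals by the way they were chosen. The share of all genes that passed is not given here, so 76 cannot be set against it. Over 3822 values under alternatives, 3663 kept direction and side of the test, 101 no longer passed, 37 newly passed and 21 changed sign. Most of these values come from leaving out single libraries, mostly ones outside the contrast, which leaves its log2 difference as it was. The number that kept their side is therefore largely fixed in advance and does not measure stability under other scalings or tools. The sign changes, whose cause was not tested, came with another scaling or count tool. Got2 at 16 h of FSK in WT was 0.24 median-centred, 0.40 with ERCC scaling, 0.18 with edgeR, 0.22 with DESeq2 and 0.37 with DESeq2 on ERCC size factors, and its 16 h Ex-4 interaction was -0.12 median-centred, -0.44 with ERCC scaling, -0.11 with DESeq2 and -0.42 with DESeq2 on ERCC size factors. Slc25a11 at 16 h of FSK in Med14 S983A was 0.025 median-centred, 0.12 with ERCC scaling, 0.00047 with DESeq2 and 0.12 with DESeq2 on ERCC size factors. With ERCC scaling, Gpd1 at 16 h of Ex-4 in WT was 0.24 and Got2 in Med14 S983A, also at 16 h of Ex-4, -0.0054. With ERCC scaling and DESeq2 on ERCC size factors, Mdh1 was -0.038 and -0.030 for Med14 S983A at 16 h of Ex-4 and 0.11 and 0.10 for genotype at CON, and Got1 was -0.20 and -0.19 for the 16 h Ex-4 interaction.

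The replicate block left all counts as they were, with 3 called pairs for Ex-4 and 8 for FSK in WT, although same-numbered libraries did not deviate together (r of -0.28 to 0.28 over 91 pairs of groups, 17 over 0.1), so they share only a number. With 2 libraries a group, small differences rest on the spread pooled over 14 groups.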
